A study of Mus musculus with 14 samples.

Results

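Notum is 1 of 472 genes measured in 14 clonal lines of mouse embryonic stem cells, and its row was read by name in the count table of every clone, with 1 column of reads for the 129 copy and 1 for the CAST copy of the gene. The clones come from a female F1 hybrid line of the strains 129 and Castaneus (CAST), whose sequence differences tell the parental copies apart. Each clone carries a deletion of an enhancer, Chen2008-1 in 8 clones and Chen2008-25 in 6. The deposited genotypes put 6 Chen2008-1 clones at +/-, 2 Chen2008-1 clones (D2 and D10) at -/+, 5 Chen2008-25 clones at KO (-/-) and 1 Chen2008-25 clone (E6) at -/+. The table does not say which strain each sign stands for, so the heterozygous groups are called here by their signs alone. No clone without a deletion was analysed here, and each set serves as the comparison for the other. Every line is 1 clone of the same parental cells, and a difference between sets cannot be told apart from where the clones came from or how they were handled. All clones were kept in a serum-free medium that held leukaemia inhibitory factor, 0.1 µM of the MEK inhibitor PD0325901 and 0.3 µM of the GSK3 inhibitor CHIR99021. The data hold no culture without the GSK3 inhibitor, and they describe Notum only in its presence.

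Wnt proteins carry a lipid that they need to bind Frizzled receptors. In the absence of Wnt, the kinase GSK3 marks β-catenin for destruction, and an inhibitor of GSK3 stabilizes β-catenin, which then activates genes together with TCF and LEF factors. Notum is one of these genes. It encodes a secreted carboxylesterase that removes the lipid from Wnt proteins, so it acts as a feedback inhibitor of the pathway. In embryonic stem cells, GSK3 inhibition supports the undifferentiated state.

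Reads were obtained by poly(A)+ RNA-seq after hybrid selection, in which probes enrich the transcripts of chosen genes. Allelic reads summed over the panel reached 135881 to 1331965 per Chen2008-1 clone and 239430 to 891466 per Chen2008-25 clone. Notum had 911 to 7169 allelic reads per clone. For both copies together, counting error was therefore small beside the spread between the Chen2008-1 clones. The CAST copy alone had 122 (D10) to 1166 reads (B8), and counting error weighs more there. As a check for a library deposited more than once, same-genotype clones were compared over genes, and the chi-square per degree of freedom was 4.27 to 44.2 in the 26 pairs. Each clone counts as 1 sample. Of 14 markers of pluripotent cells that could check the labelled cell type, 0 were in the panel. Notum lies on chromosome 11. In GENCODE models of a newer build than that of the counts, its exons share 708 bases with the exons of Notumos and 210 with those of Myadml2os, both on the opposite strand. The sources used here do not give a strand setting for the counting, and reads of these antisense genes cannot be told apart from reads of Notum.

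Notum was expressed in every clone, and its summed level was lower in the Chen2008-25 clones than in the Chen2008-1 clones. Levels are given in CPM, reads per 1000000 allelic reads of the panel with library sizes adjusted by the TMM method, and "summed" means 129 and CAST reads together. The 8 Chen2008-1 clones ran from 5089 CPM (D3) over a median of 6439 to 7880 CPM (H7). The 6 Chen2008-25 clones ran from 4159 CPM (G2) over a median of 4416 to 5004 CPM (H2). The sets did not overlap, but the gap between the lowest Chen2008-1 clone and the highest Chen2008-25 clone was small. The means were 6511 CPM ± 958 (SD, n = 8) and 4460 CPM ± 311 (SD, n = 6). In edgeR's quasi-likelihood test the Chen2008-25 clones were at 68.7% of the level of the Chen2008-1 clones (95% interval 60.6 to 77.9%), which is -0.54 on the log2 scale (SE 0.09, adjusted p = 2.55e-05). An exact two-sided permutation test of the log2 CPM over all 3003 ways to choose the 6 clones gave p = 0.000999.

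A difference between the sets was common in this panel. In the same test 63.8% of the 448 genes tested passed an adjusted p of 0.05, 34.4% with a lower and 29.5% with a higher level in the Chen2008-25 clones, and by p Notum stood in place 98. The sets did not overlap in summed CPM for 31.7% of genes, 18.1% with the Chen2008-25 clones lower. The difference in Notum therefore does not stand apart from the panel as a whole. Sequencing depth differed between clones within each set: in the Chen2008-1 set the clones with the lowest Notum levels, D3, E7 and D2, had 1331965, 908551 and 1147950 reads, while H7, with the highest level, had 355677. B8, with the next highest level, was deep at 942408 reads, so the order of levels was not that of depth throughout. In the Chen2008-25 set the clone with the lowest level, G2, was the shallowest (239430 reads) and the one with the highest level, H2, the deepest (891466 reads). The part of depth in the difference was not tested.

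**Figure D1:**
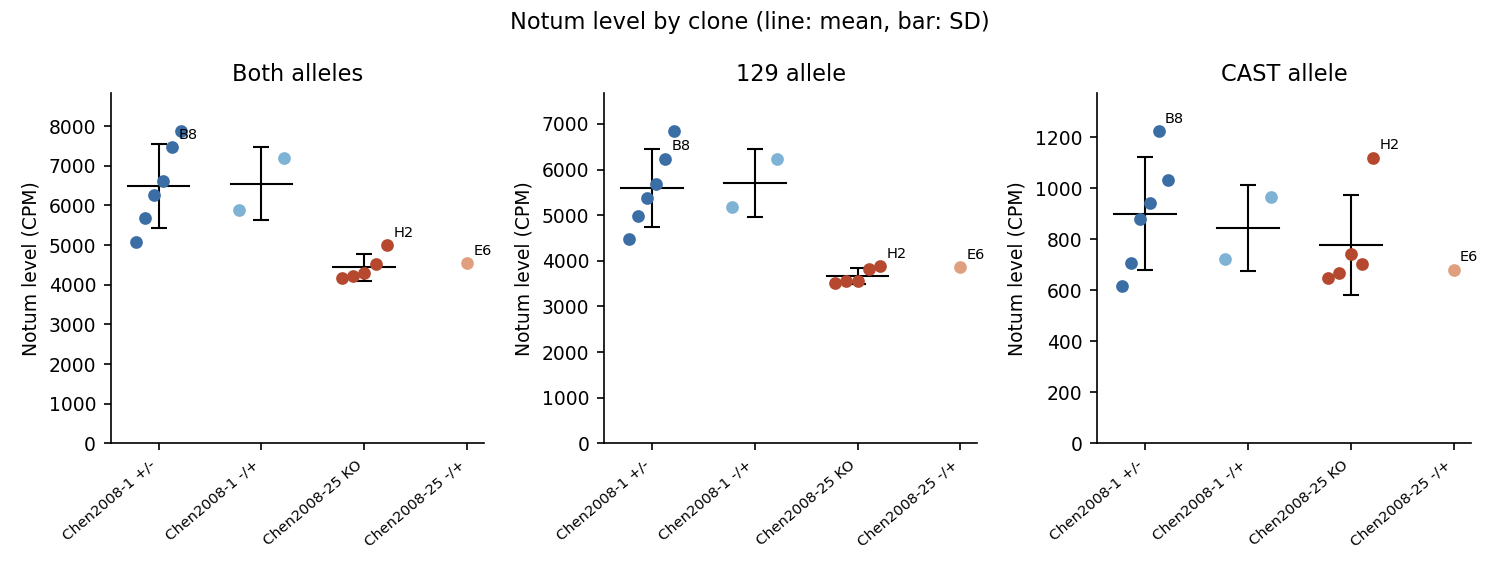
Notum level in CPM (y axis, from 0) for both alleles together, the 129 allele and the CAST allele, by enhancer set and genotype (x axis); each point is 1 clone, lines are means and bars SDs. Summed levels of the Chen2008-25 clones lie between 4159 and 5004 CPM, all below those of the Chen2008-1 clones, while on the CAST allele the sets overlap and clone H2 lies at 1120 CPM.

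Within each set, no difference in Notum between genotypes was detected. In the Chen2008-1 set the +/- clones ran from 5089 over a median of 6439 to 7880 CPM, and the -/+ clones were at 5897 (D2) and 7199 CPM (D10), inside that range. The log2 difference of -/+ against +/- was 0.01 (interval -0.28 to 0.30, edgeR adjusted p = 0.998), and 0% of genes passed in this comparison (13 of 448 at an unadjusted p under 0.05). In the Chen2008-25 set the KO clones were at 4159 (G2), 4216 (H4), 4302 (B4), 4530 (C4) and 5004 CPM (H2), and E6, the single -/+ clone, was at 4549 CPM, again inside the range. The log2 difference of E6 against the KO clones was 0.03 (interval -0.35 to 0.42, edgeR adjusted p = 0.987; 0.223% of genes passed). E6 has no replicate, and its spread was assumed to equal that among the remaining clones. The KO clones alone against the +/- clones alone differed by -0.55 on the log2 scale (SE 0.10, edgeR adjusted p = 0.000229), close to the value for the sets. In that comparison 59.4% of genes passed, 31.2% lower and 28.1% higher in the KO clones.

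Most Notum RNA came from the 129 copy in all 14 clones. Among the Chen2008-1 clones the 129 share of allelic reads ran from 83.6% (B8) over a median of 86.7% to 87.9% (D3). Among the KO clones it was 77.6% (H2), 82.7% (B4), 84.2% (H4), 84.4% (G2) and 84.5% (C4), and in E6 it was 85.0%. No clone came near an equal share of the alleles. The 95% Wilson intervals, which cover counting error only, reached from 76.4 to 78.8% in H2 and from 84.2 to 88.7% in D10, the shallowest clone. Over all clones the 129 copy gave 5.75 times the reads of the CAST copy, a log2 ratio of 2.52 (SE 0.07, edgeR adjusted p = 2.81e-17, n = 14 clones, 129 higher in 14 of 14).

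Unequal alleles as such were frequent: 72.3% of 448 genes passed this test, 40% with more reads from 129. A ratio of this size was less common. Of 354 genes with at least 10 reads in every clone, 11 (3.11%) had a higher mean 129 share than Notum (85.0%), and the median gene was at 50.6%. Whether reads of both strains were mapped and captured alike was not tested. The SD of the Notum share over the 14 clones was 2.67 percentage points, against a median SD of 3.67 points over those genes. Counting error in a share depends on the number of reads and on the share itself. The genes were not matched to Notum in either, so these SDs do not show whether its share was unusually steady.

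**Figure D2:**
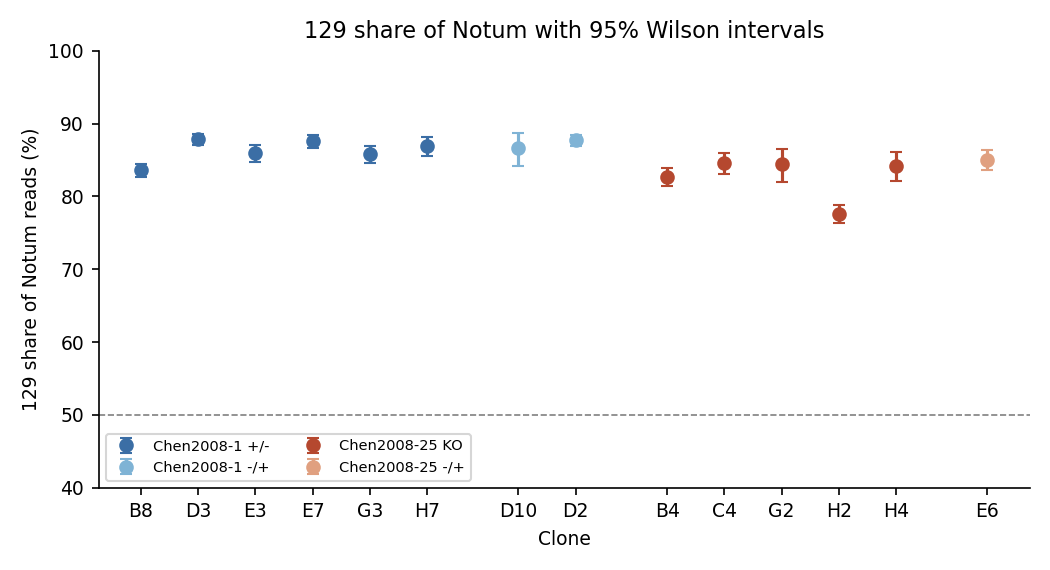
The 129 share of Notum reads in percent (y axis, from 40) for each clone (x axis), coloured by enhancer set and genotype; bars are 95% Wilson intervals and the dashed line marks 50%. All clones lie between 77.6 and 87.9%, with H2 lowest.

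The lower level in the Chen2008-25 clones passed the test on the 129 copy and not on the CAST copy. On 129, the Chen2008-1 clones ran from 4473 over a median of 5529 to 6847 CPM and the Chen2008-25 clones from 3511 over a median of 3694 to 3884 CPM, and the sets did not overlap (nor did they for 26.6% of genes on that allele, 15% with the Chen2008-25 clones lower). The Chen2008-25 clones were at 66.0% of the Chen2008-1 level (log2 -0.60, SE 0.08, edgeR adjusted p = 3.95e-06; 56.6% of 412 genes passed, 30.3% lower). The spread on this copy was small in the Chen2008-25 set, at 3700 CPM ± 177 (SD, n = 6), and wider in the Chen2008-1 set, at 5625 CPM ± 781 (SD, n = 8).

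On CAST, the Chen2008-1 clones ran from 616 over a median of 910 to 1224 CPM and the Chen2008-25 clones from 648 over a median of 691 to 1120 CPM. These ranges overlapped over most of their length, but this came from H2: the other Chen2008-25 clones reached only 743 CPM (B4). The log2 difference was -0.20 (SE 0.15, interval -0.51 to 0.12, edgeR adjusted p = 0.266; 59.7% of 395 genes passed, 33.2% lower). This value rests on single clones. Without H2 the CAST difference passed, at -0.35 (SE 0.13, edgeR adjusted p = 0.0330), and without B8, the Chen2008-1 clone with the highest CAST level (1224 CPM), it was -0.08 (SE 0.14, adjusted p = 0.648). Of the difference of 2051 CPM between the set means, 93.8% was 129 RNA and 6.16% CAST RNA, where 129 RNA made up 85.0% of Notum reads on average. The CAST part was 4.07% without B8 and 9.18% without H2, an alternative chosen after the data were seen.

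The unequal change of the copies was tested as a difference in allelic ratio between the sets. The mean 129 share of the Chen2008-1 clones was 86.5% ± 1.41 (SD, n = 8), and that of the Chen2008-25 clones 83.1% ± 2.79 (SD, n = 6). The log2 ratio of 129 over CAST was lower by 0.40 in the Chen2008-25 clones (log2 difference -0.40, SE 0.10, interval -0.61 to -0.19, edgeR adjusted p = 0.0122), in a comparison in which 12.1% of 448 genes passed, 6.25% with a lower and 5.8% with a higher ratio. The exact two-sided permutation p for the share, over 3003 splits, was 0.00300 with a difference of -3.41 percentage points. The ranges of the share overlapped, since B8 (83.6%) lay below C4, E6, G2 and H4. The difference passed without H2 as well, at -0.28 (SE 0.08, adjusted p = 0.0294), so H2 made up part of its size.

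Neither genotype contrast within a set showed a change of the allelic ratio that passed. The -/+ clones D2 and D10 had 129 shares of 87.7% and 86.6%, inside the range of the +/- clones (83.6 to 87.9%). The log2 ratio of -/+ against +/- was 0.14 (SE 0.13, interval -0.13 to 0.41, edgeR adjusted p = 0.994; 0.893% of genes passed). For E6 against the KO clones the log2 ratio was 0.29 (SE 0.17, interval -0.06 to 0.64, edgeR adjusted p = 0.809; 0.223% of genes passed).

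Clone H2 stood apart from the other KO clones on the CAST copy. Its CAST level was 1120 CPM, against 648 (G2), 665 (H4), 701 (C4) and 743 CPM (B4) in the other KO clones. On the 129 copy it was at 3884 CPM, against 3511 (G2), 3550 (H4), 3559 (B4) and 3829 CPM (C4), so it was the highest KO clone on both copies. Of the 702 CPM by which its summed level exceeded the mean of the other KO clones, 61.3% was CAST RNA and 38.7% 129 RNA. Its 129 share of Notum was 6.35 percentage points below the mean of the other KO clones, and for 5.37% of 354 genes H2 deviated downward by at least as much. The neighbouring genes on the chromosome did not share this shift: over 19 of them the median deviation of H2 was -0.62 points, 11 were lower and 8 higher.

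The panel holds a dense run of genes around Notum. The 10 nearest on each side that were placed by the reference annotation were compared with it. Of these 20 genes 19 had a mean of at least 10 reads per clone and were tested, while Arhgdia, with 0 to 17.2 CPM, was not. Between the sets, 13 of the 19 fell in the Chen2008-25 clones, 2 rose and 4 did not pass, and the median log2 difference was -0.26. Over all 448 genes 34.4% fell and 29.5% rose, and the median was -0.01. The order of genes, in which Pycr1 is the next panel gene on one side of Notum and Aspscr1 on the other, was read from the reference annotation. Stra13, which the panel lists between Aspscr1 and Lrrc45, was not placed there by its name. It is not among the 20 genes or in their counts (log2 difference 0.20, edgeR adjusted p = 0.479).

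Next to Notum in the panel, Pycr1, an enzyme of proline synthesis, ran from 1477 to 1979 CPM in the Chen2008-1 clones and from 609 to 803 CPM in the Chen2008-25 clones. It fell by 1.30 on the log2 scale (SE 0.08, edgeR adjusted p = 2.18e-09). Aspscr1, on the other side, ran from 2334 to 3076 CPM and from 2561 to 2949 CPM. Its log2 difference was 0.06 (interval -0.06 to 0.18, edgeR adjusted p = 0.370), so the next panel genes on either side of Notum differed from each other.

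Further out the values were also mixed. Slc16a3, which encodes a lactate transporter, fell by 3.63 on the log2 scale (SE 0.26), Fam195b fell by 1.02 (SE 0.07) and the small GTPase gene Rac3 fell by 1.00 (SE 0.09). Smaller falls passed for Npb (-0.52), Pcyt2 (-0.43), Dcxr (-0.38), Anapc11 (-0.33), Alyref (-0.33), Ccdc57 (-0.26), P4hb (-0.21), Rfng (-0.20) and Sirt7 (-0.16). Fasn, the fatty acid synthase gene, rose by 0.73 (SE 0.08) and Mafg rose by 0.17 (SE 0.07). Gps1 (0.23), Lrrc45 (-0.07) and Dus1l (-0.07) did not pass. The edgeR adjusted p of the genes that passed was at most 0.0435. With scaling to total reads 12 of the 19 passed, and the falls of Npb, Sirt7 and Rfng were then above the threshold.

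**Figure D3:**
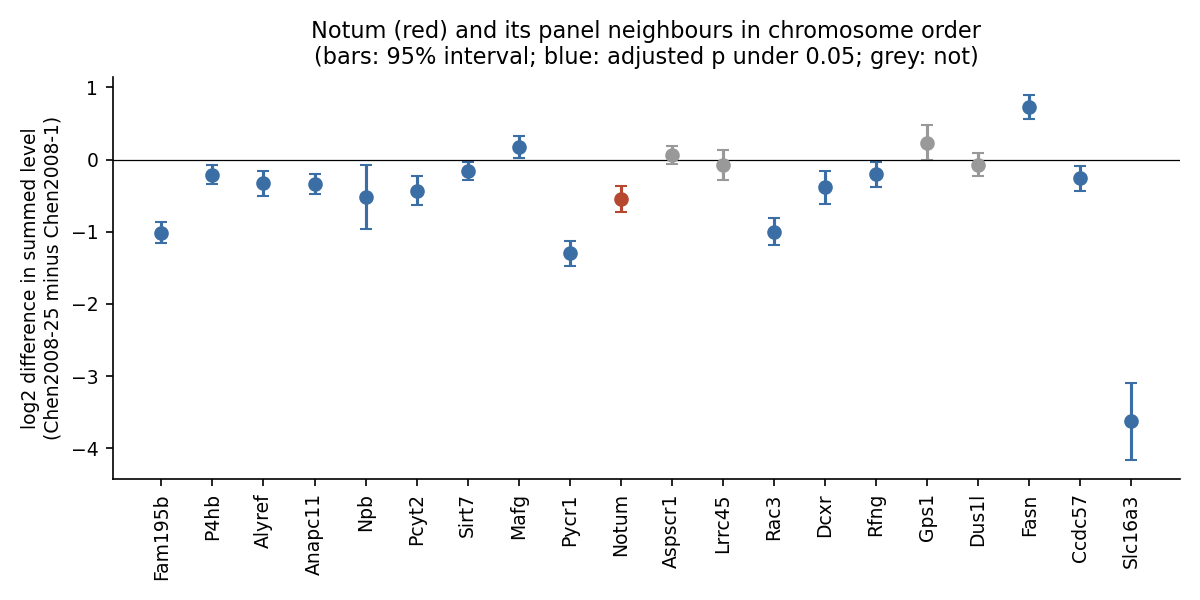
The log2 difference in summed level between the Chen2008-25 and Chen2008-1 clones (y axis) for Notum and 19 panel neighbours in chromosome order (x axis, not to distance); points are edgeR estimates and bars 95% intervals. Notum (-0.54) lies between Pycr1 (-1.30) and Aspscr1 (0.06), and Slc16a3 (-3.63) is lowest.

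The strong excess of 129 RNA was not seen in these neighbours. The mean 129 share over the 14 clones was 54.0% for Pycr1 and 53.6% for Aspscr1, beside 85.0% for Notum. In each clone the median share of the 19 neighbours was between 48.7 and 51.9%. The neighbour with the highest log2 ratio of 129 over CAST was Npb, at 0.87 (SE 0.18), which had 30.0 to 94.8 CPM. The lowest was Alyref, at -0.90 (SE 0.02), with a 129 share of 35.0% ± 1.23 (SD, n = 14). The 129 over CAST ratio passed in 13 of 19 neighbours (7 higher on 129, 6 higher on CAST), near the 72.3% of the panel, so these genes differed from Notum in the size of the ratio. The change of the ratio between the sets passed in 0 of the 19, with 12.1% passing in the panel, and their estimates ran from -0.19 to 0.22, while Notum was at -0.40. Whether Notum differs from its neighbours in this respect was not tested.

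**Figure D4:**
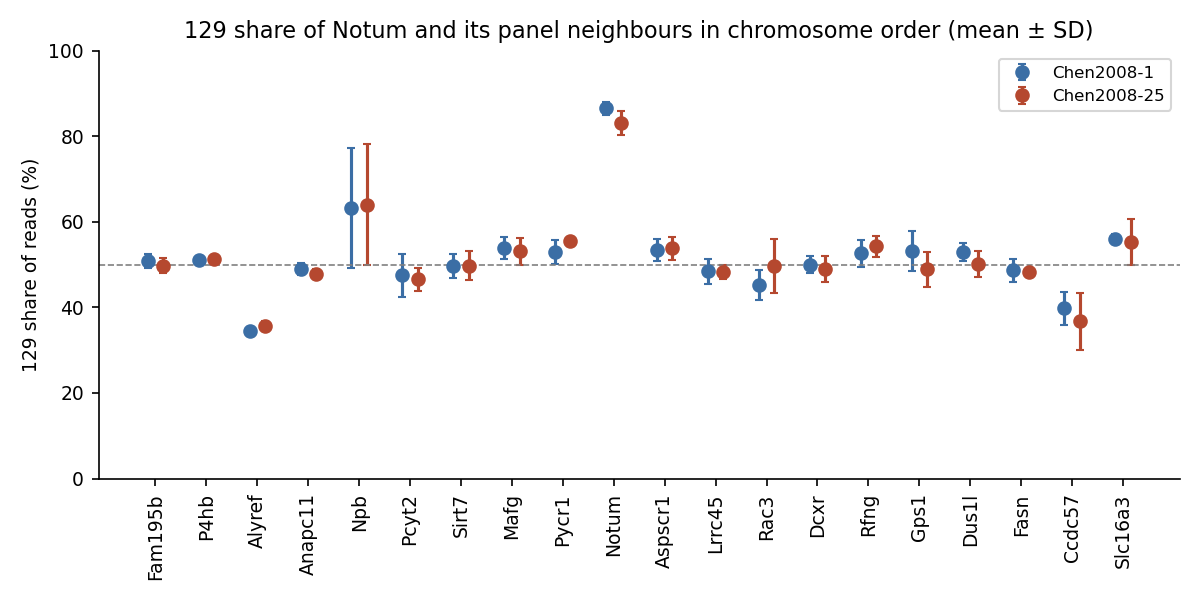
The 129 share of reads in percent (y axis) for Notum and 19 panel neighbours in chromosome order (x axis, not to distance), as mean and SD over the 8 Chen2008-1 clones (blue) and the 6 Chen2008-25 clones (red); the dashed line marks 50%. Notum lies at 86.5% and 83.1%, above each neighbour.

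Few other genes of the Wnt pathway were in the panel. Of 114 listed genes 5 were measured, Notum among them: 1 of 22 receptors, 1 of 32 intracellular components, 1 of 18 inhibitors and 3 of 18 targets, with Notum in both of the last groups and none of the ligands or nuclear factors. Of the 4 genes besides Notum, 2 fell in the Chen2008-25 clones, 1 rose and 1 did not pass, a share of calls like that of the panel (63.8%).

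Among the receptors, Lrp6, the co-receptor that binds Wnt together with Frizzled, was higher in the Chen2008-25 clones. It ran from 356 over a median of 466 to 563 CPM in the Chen2008-1 clones and from 785 over a median of 834 to 950 CPM in the Chen2008-25 clones. The sets did not overlap. It rose by 0.89 on the log2 scale (SE 0.09, edgeR adjusted p = 2.03e-07), opposite in direction to Notum. It rose on both copies, by 0.80 on 129 (SE 0.11) and 1.04 on CAST (SE 0.14).

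Inside the cell, Csnk1d, the casein kinase 1 delta gene, lies on chromosome 11 as well. It ran from 3912 over a median of 4282 to 4510 CPM in the Chen2008-1 clones and from 3936 over a median of 4369 to 4597 CPM in the Chen2008-25 clones. These ranges nearly coincide. The log2 difference was 0.02 (interval -0.09 to 0.13, edgeR adjusted p = 0.730), and its 129 share was 50.8% ± 1.22 (SD, n = 14).

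The other listed Wnt targets, Myc and Cdx4, were lower in the Chen2008-25 clones, as Notum was. Myc, a transcription factor of cell growth, ran from 1659 over a median of 2036 to 2684 CPM in the Chen2008-1 clones and from 713 over a median of 1259 to 1529 CPM in the Chen2008-25 clones. It fell by 0.80 on the log2 scale (SE 0.14, edgeR adjusted p = 9.81e-05), without overlap of the sets. In Myc too the 129 copy fell by more (-1.03, SE 0.16) than the CAST copy (-0.59, SE 0.14), and the difference in ratio passed (-0.46, SE 0.09, adjusted p = 0.00119). In contrast to Notum the alleles of Myc were near balance, with a 129 share of 52.5% ± 3.40 (SD, n = 8) and 44.9% ± 2.94 (SD, n = 6). In H2, the clone with the highest Notum level of its set, Myc was at its lowest (713 CPM).

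Cdx4, an X-linked homeobox gene, was measured at low depth, with 4 to 90 reads per clone. It ran from 28.0 over a median of 58.2 to 79.0 CPM in the Chen2008-1 clones and from 12.6 over a median of 27.7 to 34.6 CPM in the Chen2008-25 clones, and the ranges overlapped. It fell by 0.97 on the log2 scale (SE 0.28, edgeR adjusted p = 0.00544). All of its 422 reads were assigned to 129 and 0 to CAST. If each read counts an independent molecule, this allows a CAST share of up to 0.711% for counting error only.

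**Figure D5:**
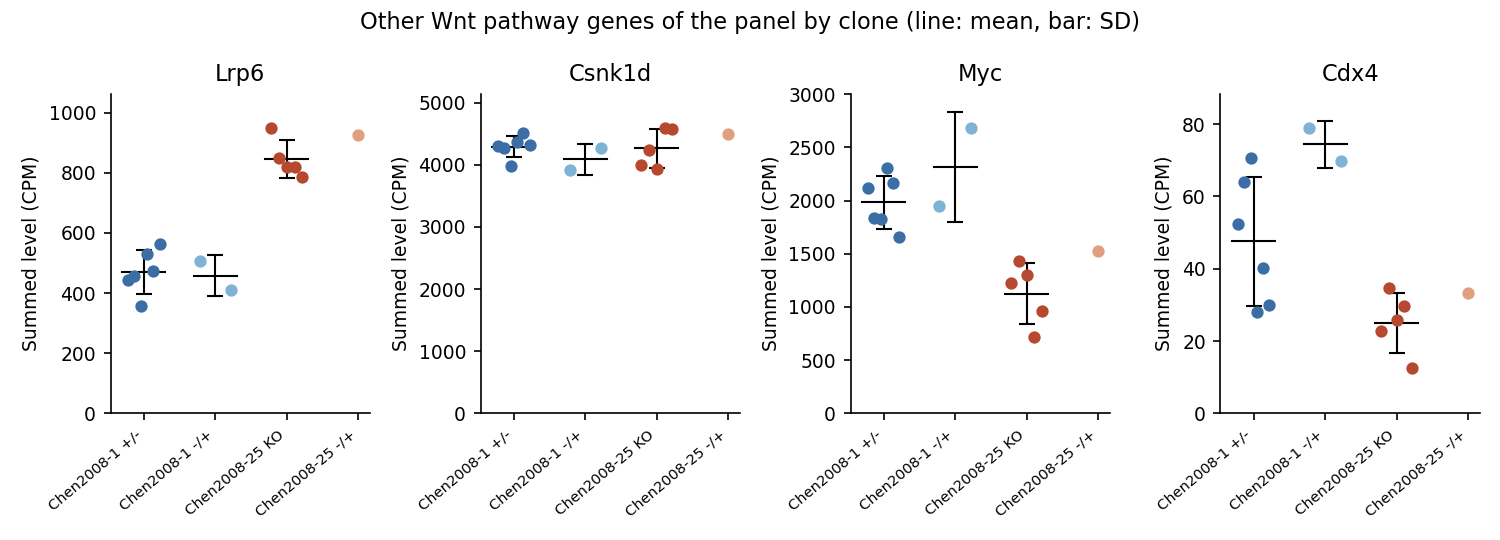
Summed level in CPM (y axis, from 0) of the other Wnt pathway genes of the panel, Lrp6, Csnk1d, Myc and Cdx4, by enhancer set and genotype (x axis); points are clones, lines means and bars SDs. Lrp6 is higher in the Chen2008-25 clones, Myc and Cdx4 are lower, and Csnk1d lies between 3912 and 4597 CPM in all clones.

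Over the 14 clones, the summed level of Notum was most like that of Txn2, a mitochondrial thioredoxin (Pearson r = 0.94, Spearman rho = 0.87 of log2 CPM). Next came the DNA ligase gene Lig1 (r = 0.93, rho = 0.90), the translation initiation factor gene Eif3d (0.93 and 0.87), the mitochondrial ribosomal protein gene Mrpl12 (0.93 and 0.90) and 1110038F14Rik (0.92 and 0.90). Each of these 5 was lower in the Chen2008-25 clones, by between 0.19 (Eif3d) and 0.50 (Mrpl12) on the log2 scale, so the likeness holds the difference between the sets. These are the highest correlations among the 448 genes tested, and the points share libraries and depth. With the mean of each set removed, a step added after the data were seen, the likeness was lower but remained. Pearson r was then 0.75 for Txn2, 0.74 for Lig1, 0.85 for Eif3d, 0.71 for Mrpl12 and 0.67 for 1110038F14Rik. By the order of the panel, Mrpl12 lies beyond Fam195b in the same run of genes as Notum, outside the neighbours compared above. In the 129 share, Notum was most like Krt8 (r = 0.81, rho = 0.83), the receptor gene Gprc5a (0.78 and 0.71) and Efhd1 (0.72 and 0.68) among 354 genes. Shares of these genes also ran lower in the Chen2008-25 clones, so this likeness too holds the difference between the sets. H2 had the lowest share of all clones in Krt8, Gprc5a and Efhd1 (56.0, 14.4 and 33.6%), as in Notum. No correlation of shares within the sets was computed.

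Krt8 and its partner Krt18, keratins of simple epithelia such as trophectoderm, were the 2 of 51 listed cell type markers in the panel (2 of 8 trophectoderm markers). Together they were at 1016 to 2128 CPM in the +/- clones, 1312 CPM in D2 and in D10, 187 to 373 CPM in the KO clones and 246 CPM in E6. Krt8 fell by 2.36 (SE 0.19, edgeR adjusted p = 8.75e-09) and Krt18 fell by 1.58 (SE 0.34, adjusted p = 0.000551) between the sets, in the direction of Notum. Among the clones of a set their levels did not go with that of Notum: with the mean of each set removed, the correlation over the 14 clones was -0.21 for Krt8 and -0.12 for Krt18, against 0.79 and 0.62 across the sets. Their part in the difference of Notum was not tested. The Krt8 share of 129 was 78.6% ± 2.23 (SD, n = 8) and 63.4% ± 6.05 (SD, n = 6). In a bulk sample, fewer cells of a type and less RNA per cell cannot be told apart.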

How the data were processed

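The authors deposited, for each clone, whole-number read counts per gene for the 129 and CAST copies in separate columns, per the file headers, with no normalization. Genotypes are text (another kind of value) in the authors' deposited genotype table, which gives all clones the same hybrid selection batch and probe set. The headers of the count columns also hold a number code that is the same within each enhancer set and differs between the sets. What the code stands for is not given, and it cannot be told apart from the enhancer set. The submitters' processing notes name the build mm9. The aligner, the allele assignment and the counter are not given in the sources used here. Of 472 rows 1 repeated the counts of another and was left out. Between 79.1 and 88.6% of counts from 1 to 19 were even numbers. Reads may therefore not count independent molecules. The Wilson intervals may be too narrow, and the bound on the CAST share of Cdx4 may be too low.

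Genes with a mean of at least 10 reads per clone were tested in R 4.3.3 with edgeR 4.0.16 (quasi-likelihood, TMM factors from summed counts, Benjamini-Hochberg over all genes tested), checked on simulated data. Allelic ratios were fitted on both columns with a term for each clone. DESeq2 1.42.0 and limma 3.58.1 served as alternatives. The spread behind each p-value is that between clones of 1 parental line. The gene and the lists were chosen with earlier results of these data known. The named genes are the listed Wnt genes and cell type markers in the panel, the 5 genes most like Notum in level and the 3 in share. They also include the 10 panel genes placed on each side of Notum within 1 megabase by the reference annotation. Of the 472 rows 424 were matched to the RefSeq table of GRCm38.p6 by symbol and 27 by older symbol, for gene order alone.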

Additional observations from a re-analysis of the deposited data

Results flagged for a closer look

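In the 5 KO clones, H2 lay far from the other 4 for Notum on the CAST copy, at 1120 CPM against 648 to 743 CPM. Its 129 share of Notum, 77.6%, also lay apart from the 82.7 to 84.5% of the others. The gap to the nearest clone, divided by the range, was 0.80 for the CAST level and 0.74 for the share. These 2 hits came from 36 such tests on Notum and the other Wnt genes, of which chance gives about 1 in 20, and they rest on the same CAST reads.

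The difference of Notum between the enhancer sets was not the same on its 129 and CAST copies: the log2 ratio of 129 over CAST was lower by 0.40 in the Chen2008-25 clones (-0.40, edgeR adjusted p = 0.0122), as measured with the allele term above.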

How the results depend on the processing

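Of 42 recomputed values of Notum with all clones, 41 kept their direction and their side of the threshold. The exception was the difference of -/+ against +/- clones in the Chen2008-1 set, which was -0.016 with scaling to total reads and 0.0054 with TMM factors, not called in either. With 1 clone left out at a time it ran from -0.14 to 0.11, changing sign in 6 of 14 fits. The CAST difference between the sets ran from -0.35 (without H2, where it passed) to -0.079 (without B8). The summed difference ran from -0.58 to -0.48 and the difference in allelic ratio from -0.45 to -0.28, and each passed in all 14 fits. The number of neighbours called, 15 of 19, was 14 with DESeq2 (Sirt7 and Rfng lost, Gps1 gained), 12 with scaling to total reads (Npb, Sirt7 and Rfng lost), and 12 to 15 with 1 clone left out. Leaving out E6 gave no value for the contrast of E6 with the KO clones, and leaving out D2 or D10 left 1 clone at -/+. No paired analysis was possible because the labels give the clones names and no replicate numbers shared between sets.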

Other observations

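When the mean of each enhancer set was removed before the correlation, a step added after the data were seen, the genes most like Notum in summed level over the 14 clones were Eif3d (Pearson r = 0.85), Aspscr1 (0.82), P4hb (0.81), 0610009L18Rik (0.75) and Txn2 (0.75), of 448 genes. Aspscr1, the panel gene next to Notum, thus varied with it among the clones of a set, while across all clones its correlation was 0.14. Pycr1, the neighbour on the other side, had a correlation of -0.25 within the sets and 0.80 across them. P4hb encodes a protein disulfide isomerase of the endoplasmic reticulum. The points share libraries and depth, and these values are a description.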
